A study of Homo sapiens with 6 samples.

Results

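The genes of the translation initiation and elongation factors were examined in DU145, an established human prostate cancer cell line, with and without overexpression of the circular RNA circCSPP1. Members were the genes of the deposited table whose symbol begins with EIF and a digit, or with EEF1 or EEF2, leaving out the eIF2 kinases (EIF2AK genes) and EEF1E1. The rule gave 66 of the 19727 genes in the table and used no measured value. RNA sequencing covered 6 libraries, 3 from cells transfected with the control lentivirus-NC and 3 from cells transfected with lentivirus-circCSPP1. Both groups were puromycin-selected stable lines of DU145 carrying a lentivirus, so they differ by the circCSPP1 insert and also by being separately made lines. The labels do not say that replicates were separate cultures, so p-values measure the spread between these libraries, which may be technical.

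Translation of most cellular messenger RNAs starts when eIF4E binds the 5′ cap and, with eIF4G and the helicase eIF4A, recruits the small ribosomal subunit, which carries eIF1, eIF1A, eIF3, eIF5 and the eIF2 complex with initiator tRNA. The eIF4E-binding proteins block the step from cap to eIF4G and are released from eIF4E when mTORC1 phosphorylates them. eIF2B recharges eIF2 with GTP, eEF1 brings aminoacyl-tRNAs to the ribosome and eEF2 moves the ribosome along the message. Many messages of elongation factors and ribosomal proteins begin with a terminal oligopyrimidine tract, through which their translation follows mTORC1.

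Promoter windows were found in RefSeq (GRCh38.p14) for 52 of the 66 members, and the first bases of the transcripts are shown for the most abundant elongation factors and for called members with a window. Each sequence has 12 bases before the annotated start and 18 from the start on, 5′ to 3′ on the gene's strand. Capitals mark a run of at least 7 pyrimidines that begins with C within 15 bases of the start, and EIF3C and EIF5A2 had no such run.
EEF2: gacgtcagcgttCTCTTCCgccgtcgtcgc
EEF1A1: gccgtgaacgttCTTTTTCgcaacgggttt
EIF1: caccgCCCCTCTgccccagtcactgagccg
EIF3C: tgtcccacccccgtggcaggcagccctgca
EIF5A2: gccccgtctcttggaactgccgcggccgcc
These stretches lie at chr19:3985446-3985475 on the minus strand for EEF2, at chr6:73521015-73521044 on the minus strand for EEF1A1, at chr17:41688873-41688902 on the plus strand for EIF1, at chr16:28688546-28688575 on the plus strand for EIF3C and at chr3:170908620-170908649 on the minus strand for EIF5A2. In EEF2 and EEF1A1 the run began at the annotated first base of the transcript, whereas in EIF1 it lay before it. A run of this kind was found in 4 of the 6 matched members of the terminal oligopyrimidine list, in 14 of the other 46 (30.4%) and in 18.2% of all 27305 promoter windows. The run definition and the choice of sequences were made after values were seen.

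The libraries held 28800000 to 36700000 fragments, as read from the steps of their low values. CSPP1, whose linear and circular transcripts share exons, was at 9.54 ± 0.493 FPKM (fragments scaled to transcript length and library size; SD, n = 3) in lentivirus-NC and at 19.5 ± 4.44 FPKM in lentivirus-circCSPP1. The libraries were made from poly(A) RNA, and this value does not separate the linear from the circular form. By qRT-PCR, the paper reports more circCSPP1 but no change of CSPP1 mRNA with its overexpression lentivirus in DU145. The epithelial markers KRT8, KRT18, EPCAM and CDH1 were detected in every library, KRT8 at 380 to 1138 FPKM, and all of them fell with lentivirus-circCSPP1. KLK2, KLK3 and CD3E were listed at 0 in every library. lentivirus-circCSPP1 replicate 1 stood apart from its group by the GC content of transcripts, and the calls and values it moved most are given with and without it.

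Of the 66 members, 63 averaged 1 FPKM or more across the libraries and were tested with limma on log2(FPKM + 1), a scale that understates the change of low genes. EIF4E1B, a germline relative of the cap-binding protein, was listed at 0 in every library. EIF4EBP3 and the readthrough gene EEF1AKMT4-ECE2 lay under the filter. EIF4EBP3 was at 0.39, 0.7 and 0.24 FPKM in lentivirus-NC (mean 0.443) and at 1.11, 0.37 and 0.15 FPKM in lentivirus-circCSPP1 (mean 0.543). EIF1AY was tested and counted, and its level is not given.

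Few translation factors passed the test. At an adjusted p under 0.05 (limma, Benjamini-Hochberg over 12322 genes), 4 members rose (EIF4EBP1, EIF1, EIF3C and EIF3CL) and 1 fell (EIF5A2). These 5 were 7.94% of the tested members, where 11.4% of all tested genes were called. By direction, 6.35% of members rose beside 4.69% of all genes, and 1.59% fell beside 6.66% of all genes. These shares count the near-identical copies EIF3C and EIF3CL separately, although they are best read as 1 measurement. The median log2 fold change was 0.05 over the members and -0.03 over all tested genes, with 37 members above 0 and 26 below. The libraries of the groups did not overlap in 24 members, beside 36.4% of all tested genes, higher in 17 (27.0%, beside 16.0% of all genes) and lower in 7 (11.1%, beside 20.5%). An exact permutation test (two-sided) of 3 libraries against 3 can give no p below 0.1, so single values rest on the spread that limma shares over genes. In bulk RNA, a difference in the number of cells with a message and a difference in the message per cell cannot be told apart.

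**Figure D1:**
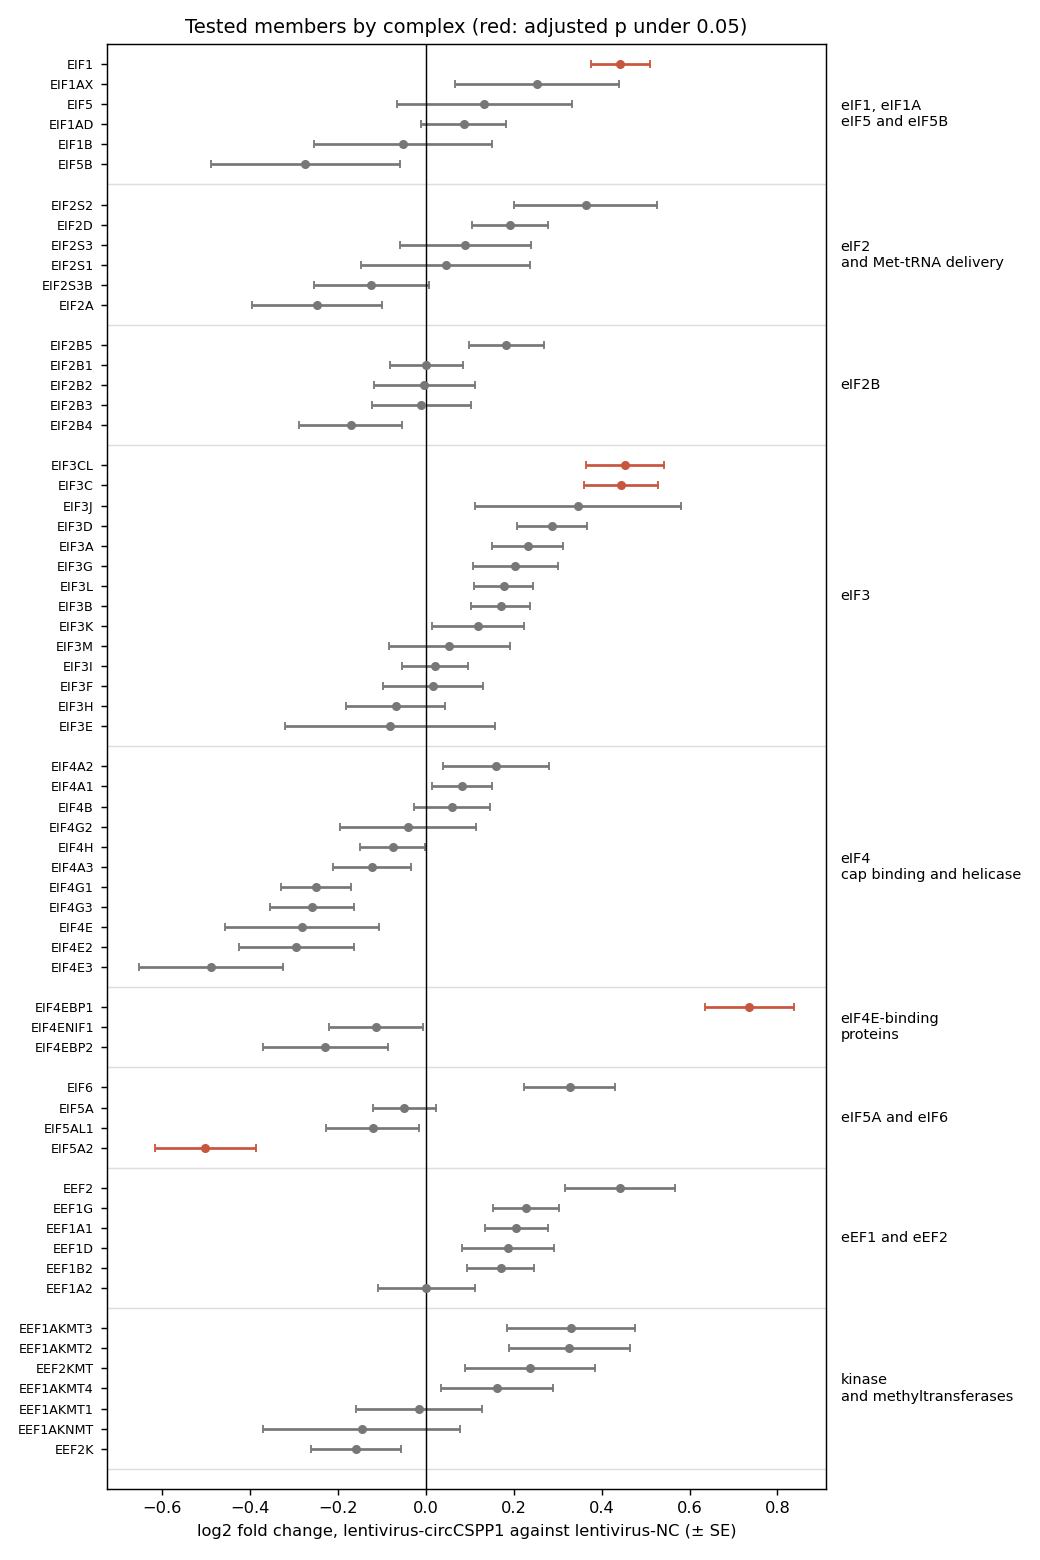
The log2 fold change of each tested member other than EIF1AY (x axis, lentivirus-circCSPP1 against lentivirus-NC, points with ± SE) is drawn by factor complex, with the 5 called members in red. EIF4EBP1 lies farthest to the right at 0.74 and EIF5A2 farthest to the left at -0.50, while all 6 eEF1 and eEF2 genes lie at or above 0, although EEF1A2 turned to -0.12 without lentivirus-circCSPP1 replicate 1, -0.020 under quantile normalization and -0.0086 after GC correction.

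EIF4EBP1, which encodes the main eIF4E-binding protein, showed the largest change among the members on the log2(FPKM + 1) scale. With a pseudocount of 0.1 or 0.01 that of EIF5A2 was larger, reaching -0.89 at 0.01. It was at 144, 138 and 142 FPKM in lentivirus-NC and at 272, 212 and 228 FPKM in lentivirus-circCSPP1. The groups were far apart, with the lowest lentivirus-circCSPP1 library well above the highest control. The mean went from 141 ± 3.04 to 237 ± 30.9 FPKM, a 1.68-fold difference (log2 fold change 0.74, SE 0.10, adjusted p = 0.0068, limma). EIF4EBP1 passed in all 17 alternative analyses, including each of the 6 that left out a library, with log2 fold changes of 0.63 to 0.81.

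EIF4EBP2 and EIF4E did not pass the test. EIF4EBP2, a second eIF4E-binding protein, was at 16.2, 16.8 and 16.7 FPKM in lentivirus-NC and at 11.2, 16.3 and 14.98 FPKM in lentivirus-circCSPP1 (log2 fold change -0.23, adjusted p = 0.34, limma). EIF4E, the cap-binding protein itself, was at 14.0, 10.9 and 12.9 FPKM in lentivirus-NC and at 7.68, 11.9 and 11.3 FPKM in lentivirus-circCSPP1 (-0.28, 95% interval -0.69 to 0.13, adjusted p = 0.34). EIF4ENIF1, which carries eIF4E into the nucleus, was at -0.11 (adjusted p = 0.53). EIF4EBP2 and EIF4E overlapped between the groups, and in both the lowest value was replicate 1 of lentivirus-circCSPP1. Without that library the log2 fold changes were -0.08 for EIF4EBP2 and -0.10 for EIF4E. The summed FPKM of the 3 EIF4EBP genes over that of EIF4E was 11.5, 14.2 and 12.4 in lentivirus-NC and 37.0, 19.2 and 21.6 in lentivirus-circCSPP1, a ratio formed after the values were seen and given with no test. EIF4EBP1 made up 89.3% ± 0.451 of the 3 genes' FPKM in lentivirus-NC and 94.1% ± 1.49 in lentivirus-circCSPP1.

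None of the 11 tested eIF4 genes passed (limma), with 3 at an unadjusted p under 0.05 and none called without variance moderation. Of these genes 8 had a negative log2 fold change, their median was -0.12, and the groups did not overlap in 3, all lower (27.3%, beside 20.5% of all genes). EIF4G1, the scaffold of the cap complex, was at 293, 285 and 316 FPKM in lentivirus-NC and at 266, 235 and 250 FPKM in lentivirus-circCSPP1. Every lentivirus-circCSPP1 library lay below every control, but the difference did not pass (log2 fold change -0.25, SE 0.079, adjusted p = 0.085). EIF4G3 (-0.26, adjusted p = 0.13) and EIF4E3 (-0.49, adjusted p = 0.099), a cap-binding relative of low level, also did not overlap between groups. EIF4A1, the main helicase, was at 713, 679 and 741 FPKM in lentivirus-NC and at 784, 719 and 754 FPKM in lentivirus-circCSPP1, which overlapped (0.08, adjusted p = 0.48). After a loess correction of each library for GC content and length, EIF4A2 was called higher and EIF4G1, EIF4G3 and EIF4E3 were called lower. Without lentivirus-circCSPP1 replicate 1, EIF4A2 (0.30, adjusted p = 0.0083, limma) was called higher, and EIF4G1 (-0.30, adjusted p = 0.017) and EIF4A3 (-0.19, adjusted p = 0.037) were called lower.

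**Figure D2:**
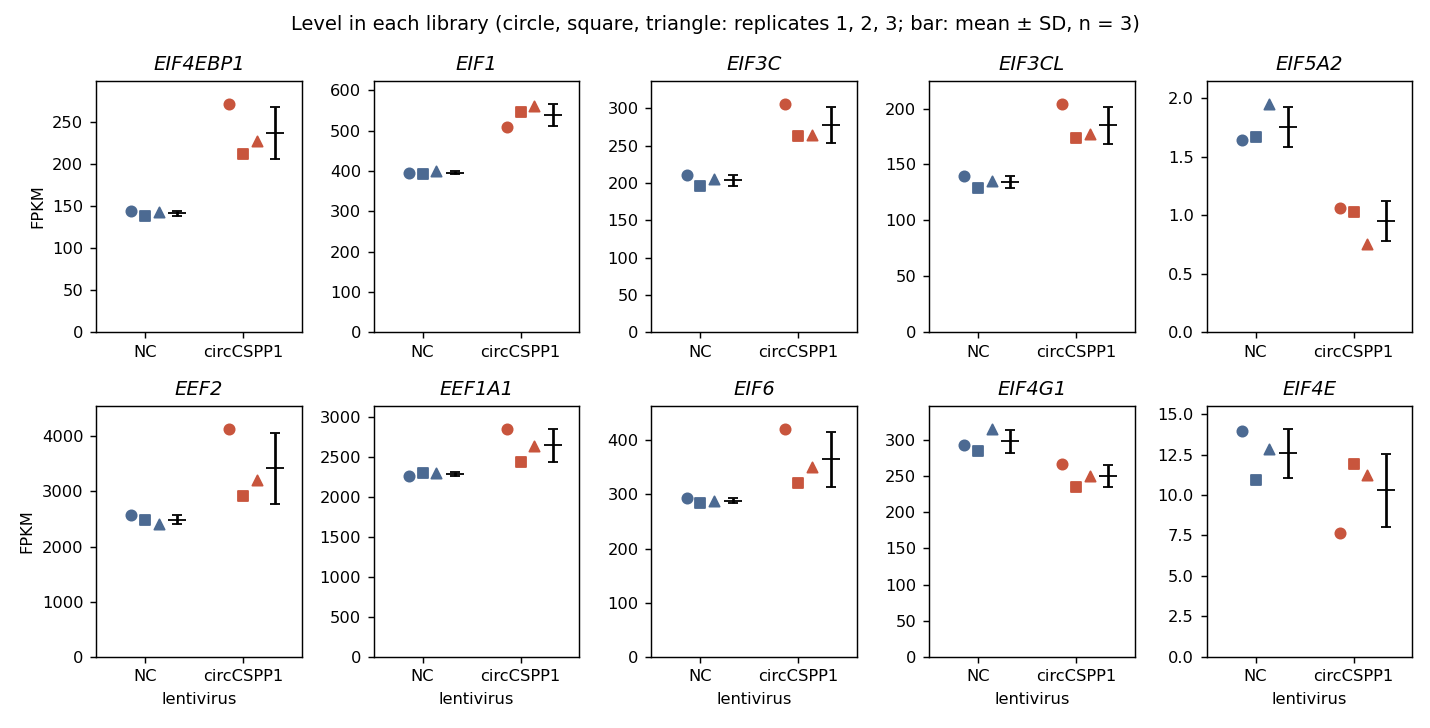
FPKM (y axis) in each library is shown for 10 members, with lentivirus-NC in blue, lentivirus-circCSPP1 in red, replicates 1, 2 and 3 as circle, square and triangle, and the mean ± SD of each group as a bar. The top row holds the 5 called members, whose groups do not overlap, and in the bottom row the groups of EIF4E overlap.

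EIF1, which guards start codon selection, rose from 395, 392 and 401 FPKM in lentivirus-NC to 508, 547 and 561 FPKM in lentivirus-circCSPP1. The control libraries were close together, and each lentivirus-circCSPP1 library lay above them. The log2 fold change was 0.44 (SE 0.067, adjusted p = 0.0093, limma), and EIF1 passed in 13 of 17 alternatives. The 4 that lost it each left out 1 library (any control, or lentivirus-circCSPP1 replicate 3), with adjusted p up to 0.063. EIF1 was the only called gene among the 7 of its group, which also holds EIF1AX (0.25), EIF5 (0.13), EIF1AD (0.09), EIF1B (-0.05) and EIF5B (-0.28). Without lentivirus-circCSPP1 replicate 1, EIF5 (0.38, adjusted p = 0.011, limma) and EIF1AX (0.46, adjusted p = 0.025) were also called, EIF1B was at 0.20 (adjusted p = 0.085) and EIF5B at -0.013 (adjusted p = 0.92). EIF1 lies at chr17:41688885-41692668 on the plus strand (GENCODE 29, GRCh38).

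No gene was called in the group of eIF2 and initiator tRNA delivery or in eIF2B, the exchange factor of eIF2 (limma). None of the 11 genes had an unadjusted p under 0.05, and none was called without variance moderation. EIF2A and EIF2D of the first group are separate factors, not subunits of the eIF2 complex, which carries the initiator tRNA. Log2 fold changes ran from -0.25 (EIF2A) to 0.36 (EIF2S2) in the eIF2 group and from -0.17 (EIF2B4) to 0.18 (EIF2B5) in eIF2B. Without lentivirus-circCSPP1 replicate 1, EIF2S2 (0.56, adjusted p = 0.0030, limma) and EIF2S3 (0.26 in place of 0.09, adjusted p = 0.033) were called higher, and after the GC correction EIF2A was called lower (-0.23, adjusted p = 0.034). EIF2S3B shares 25.5% of its 50-base windows with EIF2S3, so its values are uncertain. EIF2S1, the subunit phosphorylated by the eIF2 kinases, was at 60.6, 60.7 and 63.5 FPKM in lentivirus-NC and at 46.0, 82.1 and 67.9 FPKM in lentivirus-circCSPP1. The control libraries were tight, while the lentivirus-circCSPP1 libraries lay on both sides of them (log2 fold change 0.04, 95% interval -0.40 to 0.49, adjusted p = 0.91). Without the lowest of them, replicate 1, it was 0.27 (adjusted p = 0.063). EIF2B5, the catalytic subunit of eIF2B, was at 28.2, 26.4 and 27.0 FPKM in lentivirus-NC and at 32.1, 30.8 and 30.2 FPKM in lentivirus-circCSPP1, with no overlap and an adjusted p of 0.21 (log2 fold change 0.18). Of the neighbouring stress response genes, ATF4 (0.40, adjusted p = 0.011) and DDIT3 (1.61, adjusted p = 0.0015) rose.

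eIF3, the large scaffold on the small ribosomal subunit, held 2 of the 5 called genes, and 12 of its 14 genes had a positive log2 fold change (EIF3I turned to -0.025 under quantile normalization, -0.0084 after GC correction and -0.034 without lentivirus-circCSPP1 replicate 1), with a median of 0.17. The groups did not overlap in 7 eIF3 genes, all higher in lentivirus-circCSPP1 (7 of 14, beside 16.0% of all genes). EIF3C was at 210, 196 and 205 FPKM in lentivirus-NC and at 306, 263 and 265 FPKM in lentivirus-circCSPP1 (log2 fold change 0.44, SE 0.084, adjusted p = 0.018, limma). EIF3CL was at 139, 129 and 135 FPKM in lentivirus-NC and at 204, 173 and 177 FPKM in lentivirus-circCSPP1 (0.45, SE 0.088, adjusted p = 0.020). These are near-identical copies on chromosome 16, at chr16:28688558-28735730 on the plus strand and chr16:28379579-28403879 on the minus strand (GENCODE 29, GRCh38), and 96.8% of the 50-base windows of EIF3C occur in EIF3CL. The FPKM of EIF3CL over that of EIF3C was 0.656 to 0.668 in every library, so the assignment of fragments between them is uncertain and they are best read as 1 measurement. Both passed in 12 of 17 alternatives and lost the call without variance moderation and without any control or lentivirus-circCSPP1 replicate 3, with adjusted p up to 0.10.

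The other eIF3 subunits that did not overlap were EIF3D (0.29, adjusted p = 0.059, limma), EIF3A (0.23, adjusted p = 0.11), EIF3G (0.20, adjusted p = 0.22), EIF3L (0.18, adjusted p = 0.14) and EIF3B (0.17, adjusted p = 0.15). In lentivirus-NC the levels ran from EIF3E at 263 ± 8.14 FPKM down through EIF3D at 223 ± 8.30 and EIF3I at 215 ± 1.28 to EIF3M at 56.2 ± 3.13, EIF3J at 44.4 ± 1.12 and EIF3F at 30.5 ± 1.48. EIF3D and EIF3I overlapped in that order. EIF3E depended most on 1 library, at 161 FPKM in lentivirus-circCSPP1 replicate 1 and 320 and 298 FPKM in replicates 2 and 3, beside 272, 262 and 255 FPKM in the controls. With all libraries its log2 fold change was -0.08 (adjusted p = 0.86), and without that library it was 0.23 (adjusted p = 0.024). Also called higher without it, beside EIF3C and EIF3CL, were EIF3J (0.63 in place of 0.34, adjusted p = 0.0093, limma), EIF3D (0.23, adjusted p = 0.020), EIF3A (0.27, adjusted p = 0.020) and EIF3L (0.17, adjusted p = 0.046), while EIF3F went from 0.016 to -0.081 without passing (adjusted p = 0.44).

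**Figure D3:**
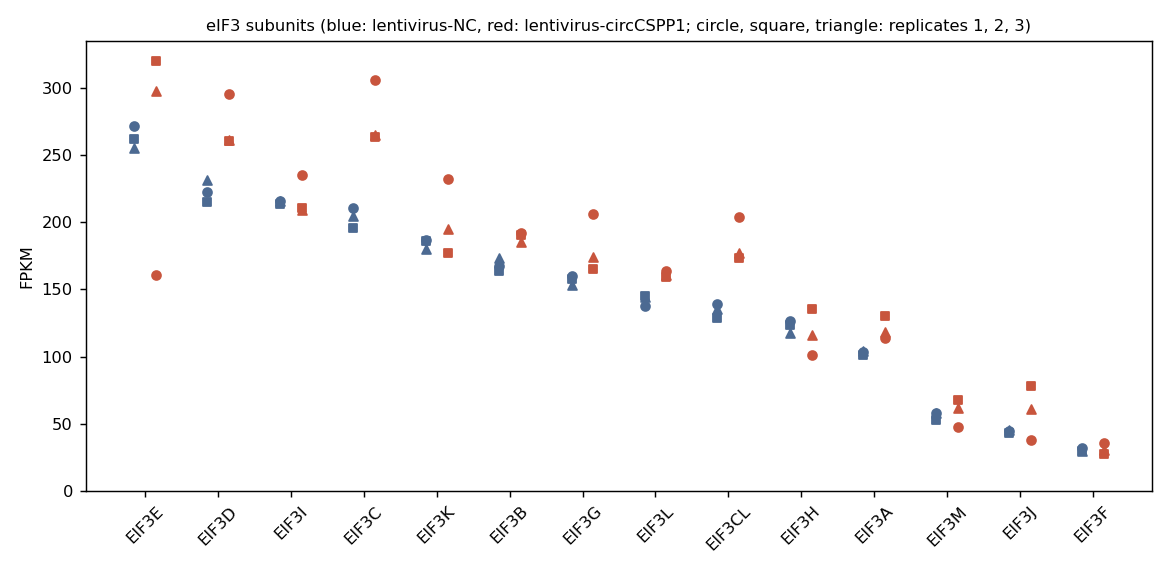
FPKM of the 14 eIF3 genes (y axis) in each library, ordered by their mean in lentivirus-NC, with lentivirus-NC in blue, lentivirus-circCSPP1 in red and replicates 1, 2 and 3 as circle, square and triangle. The red points of EIF3C and EIF3CL lie above the blue ones, and the circle of EIF3E in lentivirus-circCSPP1, at 161 FPKM, lies far below its squares and triangles.

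EIF5A2, the low-level relative of the hypusine-bearing factor eIF5A, was the only member that fell. It was at 1.64, 1.67 and 1.95 FPKM in lentivirus-NC and at 1.06, 1.03 and 0.750 FPKM in lentivirus-circCSPP1, about 121 to 400 fragments in a library if all came from its longest transcript. The groups did not overlap, and the log2 fold change was -0.50 (SE 0.12, adjusted p = 0.034, limma), but it passed in 7 of the 16 alternatives that could test it. It was lost when any library but lentivirus-circCSPP1 replicate 1 was left out, under quantile normalization, without variance moderation, with the replicate block and after the GC correction. The gene lies at chr3:170888415-170908693 on the minus strand (GENCODE 29, GRCh38). EIF5A itself was at 577, 550 and 617 FPKM in lentivirus-NC and at 575, 536 and 573 FPKM in lentivirus-circCSPP1, which overlapped (-0.05, adjusted p = 0.70). EIF6, which keeps the ribosomal subunits apart, was higher in every lentivirus-circCSPP1 library without passing (0.33, adjusted p = 0.087), and passed without replicate 1 (0.22, adjusted p = 0.026). EIF5AL1, which shares 11.6% of its 50-base windows with EIF5A, was at -0.12 (adjusted p = 0.50).

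The elongation factors include the most abundant members, EEF2 and EEF1A1, and none passed (limma; 3 of 6 at an unadjusted p under 0.05, and none without variance moderation). All 6 had a log2 fold change at or above 0 (EEF1A2 turned to -0.12 without lentivirus-circCSPP1 replicate 1, -0.020 under quantile normalization and -0.0086 after GC correction), with a median of 0.20, and 4 did not overlap between groups, all higher (66.7%, beside 16.0% of all genes). EEF2 was at 2566, 2488 and 2412 FPKM in lentivirus-NC and at 4142, 2910 and 3200 FPKM in lentivirus-circCSPP1, all above the controls and with replicate 1 highest. Its log2 fold change was 0.44 (SE 0.12, 95% interval 0.15 to 0.73, adjusted p = 0.062). Without replicate 1 of lentivirus-circCSPP1 the difference was smaller, 0.29, and passed (adjusted p = 0.011). EEF1A1, the main carrier of aminoacyl-tRNA, was at 2258, 2299 and 2301 FPKM in lentivirus-NC and at 2853, 2433 and 2639 FPKM in lentivirus-circCSPP1, without overlap (0.21, adjusted p = 0.11). EEF1A2, its tissue-restricted form, was at 536, 509 and 492 FPKM in lentivirus-NC and at 605, 486 and 457 FPKM in lentivirus-circCSPP1, which overlapped (0.00046, adjusted p = 0.999). The subunits EEF1G (0.23, adjusted p = 0.093), EEF1D (0.19, adjusted p = 0.29) and EEF1B2 (0.17, adjusted p = 0.20) of eEF1B, the complex that exchanges GTP on eEF1A, did not pass. Without lentivirus-circCSPP1 replicate 1, EEF1A1 (0.15, adjusted p = 0.049, limma) and EEF1G (0.16, adjusted p = 0.025) also passed. After the GC correction EEF2 (0.44, adjusted p = 0.0012, limma) and EEF1G (0.20, adjusted p = 0.0075) passed. EEF2K, the kinase that inhibits eEF2, was at 4.62, 4.82 and 4.72 FPKM in lentivirus-NC and at 3.83, 4.27 and 4.28 FPKM in lentivirus-circCSPP1, lower in every library without passing (-0.16, adjusted p = 0.35). With the methyltransferases of the elongation factors it made up 7 tested genes, of which 0 were called (limma; 1 at an unadjusted p under 0.05, 0 without variance moderation), with log2 fold changes up to 0.33 (EEF1AKMT3). EEF1AKMT2 (0.33, adjusted p = 0.17) passed without lentivirus-circCSPP1 replicate 1 (0.43, adjusted p = 0.030).

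The members took 2.25% ± 0.0325 of the summed FPKM in lentivirus-NC and 2.64% ± 0.121 in lentivirus-circCSPP1 (SD, n = 3). Of that, eEF1 and eEF2 genes made up 50.9% ± 0.813 and 53.5% ± 3.49. Within the 10 members with terminal oligopyrimidine messages, 0 were called (limma; 3 at an unadjusted p under 0.05, 0 without variance moderation), with a median of 0.11. Among the other 53 tested members 5 were called (9.43%, beside 11.4% of all tested genes), with a median of 0.04.

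Outside the rule, 43 genes of other translation factor lists were tested and 4 passed (9.30%, beside 11.4% of all tested genes). MKNK2, a kinase of eIF4E, went from 70.5 ± 2.49 to 149 ± 29.9 FPKM (log2 fold change 1.05, adjusted p = 0.0059, limma). LARP1, which binds terminal oligopyrimidine messages, rose by 0.57 (adjusted p = 0.0049) and PABPC4, a poly(A)-binding protein, by 0.36 (adjusted p = 0.024), while PAIP2B, an inhibitor of poly(A)-binding protein, fell by 0.49 (adjusted p = 0.030). All 4 are among the 16 initiation helpers. The 6 termination factors, 9 hypusine and diphthamide enzymes, 3 selenocysteine factors and 9 mitochondrial factors held 0 called genes, with 3, 4, 1 and 1 at an unadjusted p under 0.05. By comparison, 9 of 78 cytosolic ribosomal protein genes rose (11.5%) and 0 fell, with a median of 0.14, and 9 of 18 cytosolic aminoacyl-tRNA synthetases rose, with a median of 0.39, beside 4.69% of all genes that rose and 6.66% that fell.

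lentivirus-circCSPP1 replicate 1 departed from its group by transcript GC content, and this touched most members. Over the 63 tested members its log2 departure from replicates 2 and 3 had a Spearman correlation of 0.767 with the GC content of the longest coding transcript, beside 0.784 over 12305 genes. Among the 31 members of lower GC content this library was the lowest of its group in 24, and among the 32 of higher GC content it was the highest in 25. The median coefficient of variation over members was 3.73% in lentivirus-NC and 12.9% in lentivirus-circCSPP1, and 52 of 63 members varied more in lentivirus-circCSPP1. Without this library 22 members were called, 19 higher and 3 lower, where 28.5% of all genes were called (13.1% higher and 15.4% lower). After the GC and length correction 19 were called, 14 higher and 5 lower, where 27.2% of all genes were called (11.5% higher and 15.7% lower). Over the 63 tested members, the log2 fold changes from all 6 libraries had a Spearman correlation of 0.356 with GC content. It was -0.0092 without lentivirus-circCSPP1 replicate 1 and 0.312 after the GC and length correction. The correction therefore left most of this relation among the members in place. The part of GC content in the differences was not tested beyond these fits.

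**Figure D4:**
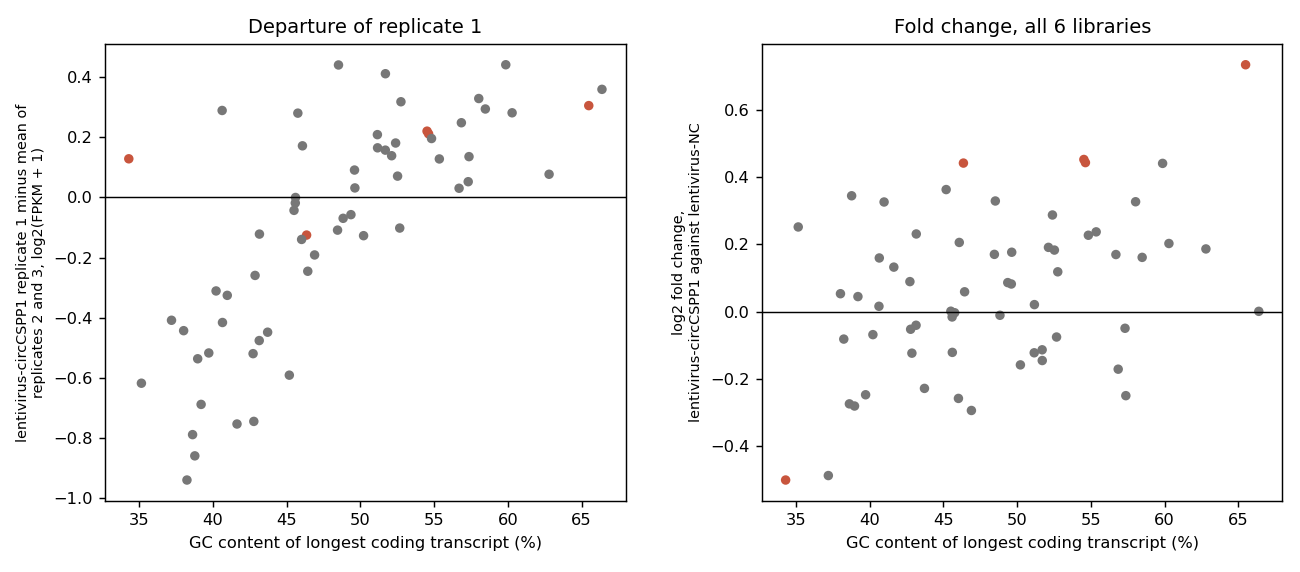
Each point is a tested member other than EIF1AY, with the 5 called members in red and the GC content (%) of the longest coding transcript on the x axis. The left y axis is the log2(FPKM + 1) departure of lentivirus-circCSPP1 replicate 1 from replicates 2 and 3, which climbs with GC content, and the right y axis is the log2 fold change over all 6 libraries.

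The promoter windows (250 bases before to 50 after the start) were searched on both strands for 4 motifs. The E-box CACGTG was in 14 of the 52 members with a window (26.9%), beside 10.3% of the windows of tested genes and 7.43% of all windows, and EIF4E, EIF4G1 and EIF5A2 were among the 14. EEF1AKMT4 and EEF1AKMT4-ECE2 share a window and both count. TGACGTC was in 3 windows (EEF2, EIF4EBP2 and EIF5; 5.77%, beside 5.75% of tested genes), CCGGAAG in 12 (23.1%, beside 20.1%) and TGATGNAA in 0, beside 1.56%. These are matches of letters, given with no test.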

How the data were processed

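The authors isolated poly(A) RNA, sequenced it in paired-end mode and deposited 1 table of FPKM values per gene and library, relative to transcript length and library size. The submitters' notes name hg38. The aligner, counter and annotation are not given in the sources used here. Count models were not used, since FPKM are not counts.

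Values were taken to log2(FPKM + 1), and limma 3.58.1 (R 4.3.3; variance trend, two-sided, no covariate) was run on the 12322 genes that averaged 1 FPKM or more, with Benjamini-Hochberg adjustment over all of them. Transcript GC content, length and coordinates came from GENCODE release 29. Depth was read from low FPKM values of 464 candidate genes, which gave 55 to 84 usable values in a library. The depth taken was that with the largest share of these values within 0.15 of a whole multiple. That share was 93.1% to 98.8% and is no separate check of the depth. Fits were tested on simulated data of 12398 genes, with 200 changed by a log2 fold change of 1, of which 74.5% were recovered and 0.0820% of the others were called. The simulated noise was drawn separately for each gene and library, with the same spread in both groups. It held no departure of a library by GC content, so these rates do not cover that feature of the data.

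Library values are given for called members and for 13 members of known roles, and other members by complex. Levels of EIF1AY are not given. The members and lists were chosen with earlier results of these data known. Other members, the ratios and the comparison groups were named after values were seen. Alternatives were 2 pseudocounts (0.1 and 0.01), dropping the filter or raising it to 5 FPKM, TPM, median-ratio and quantile scaling, no or robust moderation, the replicate number as a block, a loess correction for GC content and length, and leaving out each library. Figures used matplotlib 3.10.9.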

Additional observations from a re-analysis of the deposited data

How the results depend on the processing

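The count of 5 called members was 3 without variance moderation and 19 after the GC content and length correction, and 1 to 22 when 1 library was left out (4 to 7 in the other analyses). The 4 called higher became 14 after that correction and 1 to 19 without 1 library. The 1 called lower became 0 with a mean of at least 5 FPKM, without moderation and with the replicate block, 5 after the correction, and 0 to 3 without 1 library. Leaving out any control library or lentivirus-circCSPP1 replicate 3 left EIF4EBP1 as the only call, leaving out lentivirus-circCSPP1 replicate 1 gave 22 calls and leaving out replicate 2 gave 8. Over all genes the count of 1399 calls ranged from 293 to 3514 without 1 library. The causes were not tested.

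To check for pairing, each gene's group mean was subtracted from its log2(FPKM + 1) values, and the remaining departures were correlated across the groups. Departures of same-numbered libraries correlated at 0.0734, 0.0065 and 0.057. In 4 of the 6 libraries these departures correlated best with those of the library of the same number in the other group. Since these correlations of departures were low, the replicate numbers were not taken to pair the libraries. With the replicate block 5 members were called, losing EIF5A2 (adjusted p = 0.080, limma) and gaining EEF2 (adjusted p = 0.047).

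Log2 fold changes near 0 changed sign in some analyses. After TPM scaling EIF2B3 was at 0.0056 and EIF2B2 at 0.014. After median-ratio scaling EIF2B3 was at 0.012, EIF2B2 at 0.021 and EEF1AKMT1 at 0.0029. After quantile normalization EIF2B3 was at 0.038, EIF3I at -0.025, EEF1A2 at -0.020, EIF2B1 at -0.016, EEF1AKMT1 at 0.11 and EIF2S3B at 0.0035. After the GC correction EIF3I was at -0.0084, EEF1A2 at -0.0086 and EIF2B1 at -0.0073. Without 1 library the ranges were -0.12 to 0.083 for EEF1A2, -0.12 to 0.070 for EEF1AKMT1, -0.31 to 0.086 for EEF1AKNMT, -0.20 to 0.20 for EIF1B, -0.029 to 0.033 for EIF2B1, -0.097 to 0.061 for EIF2B2, -0.079 to 0.033 for EIF2B3, -0.14 to 0.27 for EIF2S1, -0.042 to 0.26 for EIF2S3, -0.26 to 0.23 for EIF3E, -0.081 to 0.095 for EIF3F, -0.17 to 0.035 for EIF3H, -0.034 to 0.050 for EIF3I, -0.055 to 0.20 for EIF3M, -0.17 to 0.12 for EIF4G2 and -0.041 to 0.38 for EIF5. Of these, EIF3E without lentivirus-circCSPP1 replicate 1 was the only value to pass with its sign changed.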
